A study of Homo sapiens with 6 samples.

Results

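CHMP4B, CHMP2B and CHMP1B encode subunits of ESCRT-III, and they were chosen by gene symbol from a table of alternative polyadenylation in HL-60 cells. They are 3 of its 2723 genes. Their choice was made with the authors' comparison of the groups already known, and the columns that hold that comparison were not used. HL-60 is a human promyelocytic leukemia line, which the labels type as a promyeloblast. OE-CFIm25 cells were stably transduced with a lentivirus that carries the CFIm25 coding sequence under an EF-1a promoter with an IRES-linked puromycin marker. OE-control cells received the empty vector, and both were selected with puromycin and then treated with 3 nM PMA, a phorbol ester that drives these cells toward macrophages, for 6 h. Each group had 3 samples, and the labels do not say whether these were separate cultures. RNA was sequenced from the poly(A) tail with QuantSeq FWD, so that reads collect at the poly(A) sites (PASs) where transcripts end. For each gene the table gives 1 pair of positions for the whole series, a proximal PAS (pPAS) and a distal PAS (dPAS). Per the study's methods, the pair was taken as the most used PASs of the last exon's 3’ UTR. Any other PAS of a gene is not listed. It holds no level and no number of reads that could be assigned to a sample. Read totals were deposited for 6 library names, but these names match no sample. No difference between OE-CFIm25 and OE-control is given below, because the authors' comparison was not used. No spread between samples and no depth behind a PAS is given either, because no level or number of reads could be assigned to a sample. For the same reason the cell type and the overexpression of CFIm25 were not checked against levels here.

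ESCRT-III is the part of the ESCRT machinery that cuts membranes from the inside of a narrow neck. Its CHMP subunits assemble into filaments that bud vesicles into endosomes, separate daughter cells at the end of division, and close holes in the plasma membrane, the nuclear envelope and lysosomes, and the ATPase VPS4 takes the filaments apart. CHMP4B forms the main filament, CHMP2B joins later with CHMP3 and recruits VPS4, and CHMP1B forms filaments with IST1 and binds spastin, which severs microtubules at the midbody. An mRNA cleaved at its pPAS carries a short 3’ UTR and one cleaved at its dPAS a long 3’ UTR, while the coding sequence stays the same. Cleavage mostly uses a poly(A) signal, a hexamer shortly upstream of the cut. It is helped by UGUA, the motif that CFIm25 binds, and by U-rich sequence downstream.

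All 6 PASs of the CHMP genes had AATAAA or ATTAAA in the 40 nt up to the PAS. The 30 nt that hold the signal are shown because they place the cut relative to it. They were read 5′ to 3′ on the transcript strand of GRCh37, with the signal in capitals and T for U. Each stretch ends at the PAS except that of the CHMP2B dPAS, which ends 1 nt before it.
CHMP4B pPAS: ttctgtaaAATAAActgtatttgcaaatcc
CHMP4B dPAS: actgtctATTAAAtatctcgattaattttc
CHMP2B pPAS: gggttgtaaaaatATTAAAagtatatcgtt
CHMP2B dPAS: AATAAAgatttattattgttgttcttttct
CHMP1B pPAS: tatctggaaaaATTAAAtttgttcatttat
CHMP1B dPAS: gaatttgtcaATTAAAtcattttaaactgc

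These stretches lie at chr20:32441607-32441636, chr20:32442140-32442169, chr3:87303336-87303365, chr3:87304618-87304647, chr18:11852817-11852846 and chr18:11854413-11854442, all on the plus strand and in the order shown. Each PAS had a single canonical hexamer, AATAAA or ATTAAA. CHMP4B had AATAAA at its pPAS, ending 16 nt before the PAS, and ATTAAA at its dPAS, ending 17 nt before it. CHMP2B had the opposite order, with ATTAAA ending 11 nt before its pPAS and AATAAA ending 25 nt before its dPAS, the widest gap of the 6. CHMP1B had ATTAAA at both PASs, ending 13 and 14 nt before them. Its dPAS was the only one of the 6 with another hexamer of the 11 weaker variants searched. Over the 2723 genes, a canonical hexamer stood in the same window at 1511 pPASs (55.5%) and 2187 dPASs (80.3%). ATTAAA was present at 17.0% of all pPASs and 19.3% of all dPASs, and AATAAA at 40.3% and 64.6%. A canonical hexamer at both PASs, as in each of the 3 CHMP genes, was found in 1238 genes (45.5%).

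UGUA was counted on the transcript strand in the 100 nt up to each PAS. CHMP4B had 2 copies at its pPAS and none at its dPAS, CHMP2B had 1 at its pPAS and none at its dPAS, and CHMP1B had none at its pPAS and 1 at its dPAS. The first 2 genes thus had the motif at the proximal site alone and CHMP1B at the distal site alone. With 150 nt in place of 100 nt, the CHMP2B dPAS also had 1 copy and the CHMP1B dPAS had 2. The pPAS stretches of CHMP4B and CHMP2B are repeated here with UGUA in capitals, because the motif lies inside the stretch that holds the signal.
CHMP4B pPAS, UGUA: ttcTGTAaaataaacTGTAtttgcaaatcc
CHMP2B pPAS, UGUA: gggtTGTAaaaatattaaaagtatatcgtt

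In CHMP4B the copies ended 23 and 11 nt before the pPAS, with 1 nt between each copy and the AATAAA that stands between them. In CHMP2B the copy ended 22 nt before the pPAS and 5 nt upstream of the ATTAAA. In CHMP1B the copy ended 38 nt before the dPAS and 18 nt upstream of the ATTAAA, which places it outside the printed stretch. Among all genes, 49.4% of pPASs and 60.0% of dPASs had at least 1 UGUA, and 17.9% of pPASs had at least 2. More copies at the dPAS than at the pPAS, as in CHMP1B, were found in 996 genes (36.6%). More at the pPAS, as in CHMP4B and CHMP2B, were found in 702 genes (25.8%), and a lead of at least 2 copies at the pPAS, as in CHMP4B, in 217 genes (7.97%). The spacing to the signal was looked up after the CHMP values were seen. Of the 1511 pPASs with a canonical hexamer, 89 (5.89%) had a UGUA ending within 5 nt upstream of the nearest one, and 7 (0.463%), CHMP4B among them, had a UGUA within 5 nt on both sides of it.

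**Figure D1:**
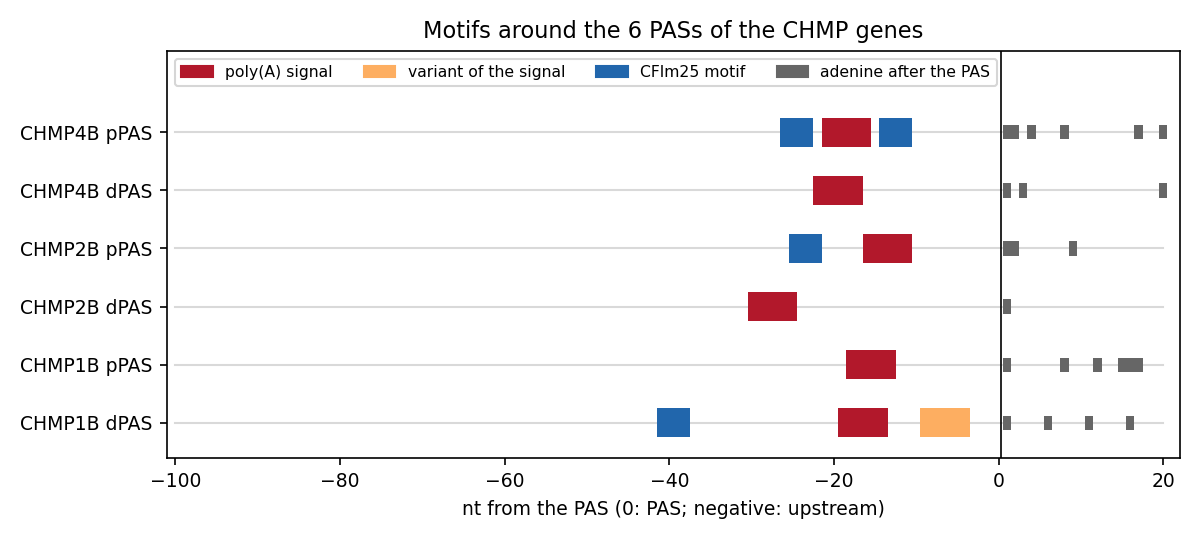
Motifs around the 6 PASs of the CHMP genes. The x axis gives nt from the PAS at 0, with negative values upstream. Bars mark the poly(A) signal, a weaker variant of it, UGUA (the CFIm25 motif) in the 100 nt up to the PAS, and each adenine in the 20 nt after it. UGUA stands on both sides of the signal at the CHMP4B pPAS, and the CHMP2B dPAS signal is the one farthest from its PAS.

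None of the 6 PASs was followed by A-rich sequence, where the oligo(dT) primer can start inside a transcript and mimic a poly(A) tail. A-rich meant at least 12 A in the 20 nt after the PAS or a run of 6 A. The CHMP4B PASs had 6 A (pPAS) and 3 A (dPAS) in these 20 nt, the CHMP2B PASs 3 and 1, and the CHMP1B PASs 6 and 4, with no run longer than 3 A. Of all genes, 728 pPASs (26.7%) and 279 dPASs (10.2%) were A-rich, and neither PAS was A-rich in 1816 genes (66.7%). Both conditions held together, a canonical hexamer at both PASs and A-rich sequence after neither, in 1122 genes (41.2%).

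The sequence around the CHMP2B PASs was A+T-rich and was followed by many T. In the 40 nt up to the PAS, A+T made up 77.5% at its pPAS and 82.5% at its dPAS, and 21.0% and 11.3% of all genes had as much or more at the same kind of site. In the 20 nt after the PAS it had 10 T at the pPAS and 12 T at the dPAS, reached by 17.3% and 6.87% of genes. The medians over all genes were 67.5% A+T and 7 T for pPASs, and 72.5% A+T and 8 T for dPASs. CHMP1B had 80.0% A+T at its pPAS, a level reached by 12.9% of genes, and 77.5% at its dPAS, with 10 and 9 T after them. CHMP4B had 75.0% A+T at its pPAS and, at its dPAS, 72.5%, equal to the median. It had 6 T after the pPAS, below the median, and 11 T after the dPAS, a number reached by 13.3% of genes.

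All 6 PASs were placed by the annotation in the final exon of the gene's main transcript, past the stop codon, as were both PASs of 2671 genes (98.1%) in all. This location follows from how the authors chose the pairs, which were taken from the last exon's 3’ UTR. CHMP4B (ENSG00000101421) lies on chromosome 20, plus strand, and both PASs fall in exon 5 of 5 of ENST00000217402. Its pPAS at position 32441636 was 270 nt past the stop codon and its dPAS at 32442169 was 803 nt past it, which is 3 nt from the annotated end of the transcript. CHMP2B (ENSG00000083937) lies on chromosome 3, plus strand, with both PASs in exon 6 of 6 of ENST00000263780. Its pPAS at 87303365 was 393 nt past the stop codon, and its dPAS at 87304648 was 1676 nt past it and 58 nt from the annotated end. CHMP1B (ENSG00000255112) lies on chromosome 18, plus strand, in the single exon of ENST00000526991, which the annotation tags as a retrogene. Its pPAS at 11852846 was 736 nt past the stop codon, and its dPAS at 11854442 was 2332 nt past it and 1 nt from the annotated end. The dPASs thus coincided with annotated ends to within 58 nt, while the pPASs lay 536, 1341 and 1597 nt short of them in CHMP4B, CHMP2B and CHMP1B. A main transcript of a single exon was found in 42 of the 2671 genes (1.57%). CHMP1B lies within the span of GNAL, which encodes a G protein alpha subunit, on the same strand (chromosome 18, 11689263 to 11885684), and neither CHMP1B PAS falls in an exon of any of the 10 GNAL transcripts.

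The order from shortest to longest was CHMP4B, CHMP2B, CHMP1B for the short 3’ UTR, for the long 3’ UTR and for the distance between the PASs. The PASs were 533 nt apart in CHMP4B, 1283 nt in CHMP2B and 1596 nt in CHMP1B, at the 40.9, 64.8 and 72.0 percentiles of all genes, whose distances ran from 25 to 67373 nt with a median of 760 nt. Among the 2671 genes with both PASs in the main transcript's final exon, the short 3’ UTRs of 270, 393 and 736 nt stood at the 28.8, 39.2 and 57.3 percentiles (median 573 nt). The long 3’ UTRs of 803, 1676 and 2332 nt stood at the 21.8, 48.3 and 63.3 percentiles (median 1742 nt). In relative terms the order changed. The long 3’ UTR was 2.97-fold the short one in CHMP4B, 3.17-fold in CHMP1B and 4.26-fold in CHMP2B. The short 3’ UTR made up 33.6% of the long one in CHMP4B, 31.6% in CHMP1B and 23.4% in CHMP2B, against a median of 44.8% over the same 2671 genes, with quartiles of 20.04% and 73.0%. All 3 lay below that median and within those quartiles. Within the pair, only the long isoform carries the stretch between the PASs. It made up 66.4%, 76.6% and 68.4% of the long 3’ UTR in CHMP4B, CHMP2B and CHMP1B.

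**Figure D2:**
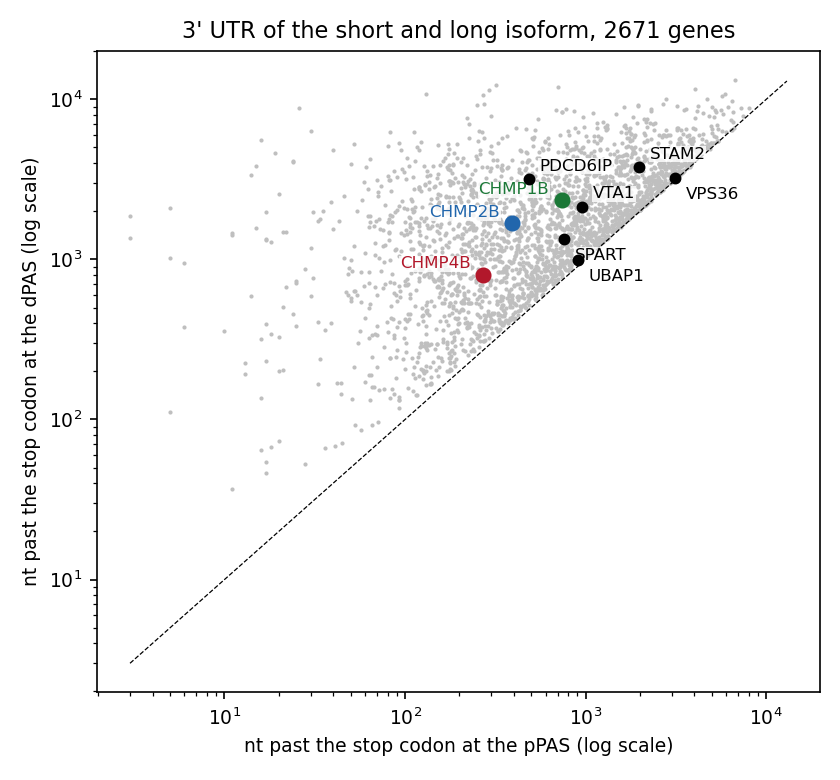
The 3’ UTR of the long isoform against that of the short isoform in nt, both on log scales, for 2671 genes (grey points). The dashed line marks equal lengths, coloured points are the CHMP genes and black points are other ESCRT genes. CHMP4B, CHMP2B and CHMP1B lie in a row well above the line, and UBAP1 and VPS36 lie close to it.

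The stretch between the PASs was searched on the transcript strand for elements that only the long isoform of the pair would carry. Isoforms that end at an unlisted PAS could carry some of them too. AUUUA is the core of AU-rich elements, which many RNA decay factors bind, and UGUANAUA is the motif of the Pumilio repressors. A match is a description of the sequence and does not show that a factor binds there. For each CHMP gene, the count was set beside counts in the same number of nt after the pPAS of all other genes whose PASs were at least as far apart. These were 1612 genes for CHMP4B, 959 for CHMP2B and 763 for CHMP1B. The whole stretch of a CHMP gene ends at its own dPAS, whereas the windows of genes with wider pairs stop before theirs. The main comparisons are therefore also given without the last 100 nt of the stretch, with the other genes' windows cut to the same length, and canonical hexamers are compared only in that way.

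CHMP4B was densest in UGUA, with 6 copies in 533 nt, or 11.3 per 1000 nt. The median of the other genes was 3 copies, and 9.99% had as many or more. Without the last 100 nt CHMP4B still had 6 copies, against a median of 2, and 5.96% had as many or more. The copies began 86, 101, 134, 140, 200 and 257 nt past the pPAS, with none in the rest of the stretch. CHMP4B had 1 AUUUA (median 1), which lay in the last 100 nt, no UGUANAUA and, apart from the signal of its own dPAS, no canonical hexamer. The stretch was 58.7% A+T, against a median of 59.9%, and 55.7% without the last 100 nt (median 60.5%).

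The CHMP2B stretch was the most A+T-rich of the 3, at 70.1%, against a median of 59.5%, and 2.40% of the other genes had as much or more. Without the last 100 nt it was 69.5% (median 59.6%), a level reached by 4.38%. The whole stretch held 6 AUUUA (median 3), a number reached by 13.6% of the other genes. Without the last 100 nt it held 4 (median 2), a number reached by 30.1%. There was 1 UGUANAUA, which began 1165 nt past the pPAS, and 20.3% of the other genes had at least 1 copy. It also held 5 canonical hexamers, which began 472, 657, 681, 1076 and 1253 nt past the pPAS, and only the last of these is the signal of its dPAS. Without the last 100 nt, and so without that signal, it held 4, against a median of 1, and 12.9% of the other genes had as many or more. UGUA was present 10 times, or 7.79 per 1000 nt (median 6 copies), all outside the last 100 nt.

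CHMP1B stood near the middle of the other genes in each of these counts. It had 9 UGUA (median 8), or 5.64 per 1000 nt, 3 AUUUA (median 3), no UGUANAUA and 61.8% A+T (median 59.6%). Its 3 canonical hexamers began 257, 1404 and 1577 nt past the pPAS, the last being that of the dPAS. Without the last 100 nt it held 2 hexamers (median 2), 8 UGUA (median 7) and 3 AUUUA (median 3). Over the whole stretch the share of A+T was reached by 39.7% of the other genes and the number of UGUA by 45.5%.

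**Figure D3:**
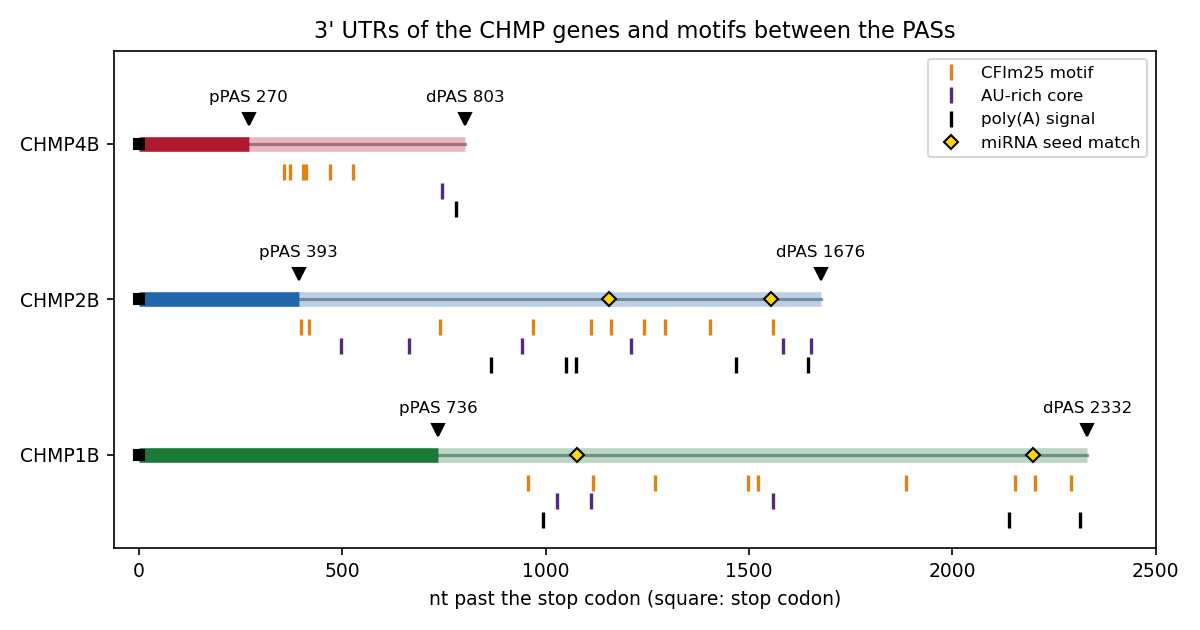
The 3’ UTRs of the CHMP genes, drawn to scale in nt past the stop codon. Full colour is the part shared by both isoforms, pale colour the part between the PASs, triangles the PASs, and ticks the starts of UGUA (CFIm25 motif), AUUUA (AU-rich core) and canonical poly(A) signals between the PASs, with diamonds for miRNA seed matches. The 6 UGUA of CHMP4B lie within 257 nt of its pPAS, and CHMP2B has 5 signals between its PASs.

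Matches to the seeds of 11 miRNAs known in blood cells were also searched between the PASs. They have 10 different seeds, since miR-17-5p and miR-20a-5p share one, and 2 of the seeds had a match. The mature sequences of these 2 miRNAs, from RefSeq on GRCh38.p14, are shown with the seed, bases 2 to 8, in capitals. They lie at chr17:59841273-59841294 on the plus strand and chr1:198859108-198859130 on the minus strand.
hsa-miR-21-5p: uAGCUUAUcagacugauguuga
hsa-miR-181a-5p: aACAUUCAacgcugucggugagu

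The matches are shown with the letters that pair with the seed in capitals. They lie at chr3:87304117-87304146, chr3:87304515-87304544, chr18:11854298-11854327 and chr18:11853176-11853205 of GRCh37, plus strand, in the order shown.
CHMP2B, miR-181a-5p, first: ttggtatctaaTGAATGTgtagacagggag
CHMP2B, miR-181a-5p, second: gttttgattctTGAATGTacataataatgc
CHMP1B, miR-181a-5p: tcatactattaTGAATGTacatttttatga
CHMP1B, miR-21-5p: tccttgaaaatATAAGCTggaatgttttac

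CHMP2B had 2 matches to miR-181a-5p, a miRNA with known roles in lymphocyte and myeloid differentiation, which began 763 and 1161 nt past the pPAS. The second is followed by an A and overlaps the UGUANAUA of this gene. At least 1 match to this seed was found in 15.0% of the 959 other genes. CHMP1B had 1 match to miR-181a-5p at 1463 nt past the pPAS, also followed by an A, and 17.6% of its 763 other genes had at least 1. It also had 1 match to miR-21-5p, which is abundant in many leukemias, at 341 nt past the pPAS, and 9.31% of the other genes had at least 1. CHMP4B had no match to any of the 11 miRNAs in this stretch. Over all seeds searched, the share of other genes with a match ran from 3.86% to 21.1% at the CHMP2B length. At the CHMP1B length it ran from 4.46% to 25.6%. The share with a match to any of the seeds was not computed, so the matches of CHMP2B and CHMP1B are not read as unusual.

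The wider ESCRT machinery was described with a list of 38 genes in order of their action, of which 9 had a PAS pair in the rows analysed. The share of all annotated genes with a PAS pair was not computed, so these counts have no baseline. ESCRT-III had 3 of 12, which are the 3 CHMP genes. Genes were matched by symbol, so the pair listed as RNF103-CHMP3, which lies in the last exon of CHMP3, is not counted. ESCRT-0, which gathers ubiquitinated cargo, had 1 of 3 (STAM2), ESCRT-I 1 of 9 (UBAP1) and ESCRT-II 1 of 3 (VPS36). The genes of filament disassembly had 1 of 3 (VTA1, the cofactor of VPS4), and adaptors and partners had 2 of 8, namely PDCD6IP, which encodes the CHMP4-recruiting adaptor ALIX, and SPART, which encodes the endosomal protein spartin. The distance between the PASs was 83 nt in UBAP1, 99 nt in VPS36, 585 nt in SPART, 1173 nt in VTA1, 1796 nt in STAM2 and 2694 nt in PDCD6IP. The CHMP genes thus fell between VPS36 and STAM2, with CHMP4B next to SPART and CHMP2B next to VTA1. PDCD6IP stood at the 86.3 percentile of all genes and UBAP1 at the 8.85 percentile. All 6 of these genes had a canonical hexamer at both PASs and A-rich sequence after neither, as did the 3 CHMP genes, beside 41.2% of the 2723 genes. Their UGUA counts were mixed. UBAP1 had 2 at the pPAS and none at the dPAS, the same numbers as CHMP4B, VPS36 had 1 and none, the same as CHMP2B, and STAM2 had none and 1, the same as CHMP1B. SPART had 3 and 1, VTA1 had 1 and 2, and PDCD6IP had 1 and 3.

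**Figure D4:**
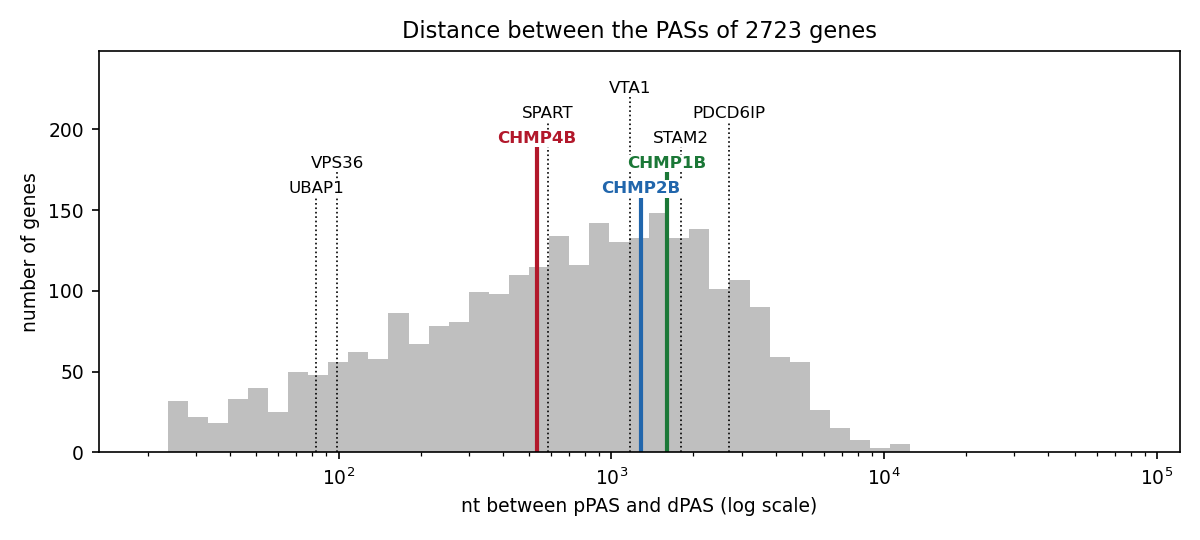
Number of genes against the distance between pPAS and dPAS in nt (log scale) for 2723 genes. Solid coloured lines mark the CHMP genes and dotted lines the other ESCRT genes with a PAS pair. CHMP4B at 533 nt lies below the median of 760 nt, and CHMP2B at 1283 nt and CHMP1B at 1596 nt lie above it.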

How the data were processed

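QuantSeq FWD libraries of 6 HL-60 samples were processed by the authors with STAR 2.7.7a and hg19. Per the study's methods, reads were assigned to PASs of the PolyA_DB database with a tolerance of 24 nt, so positions are those of the database. The authors deposited 1 pPAS and 1 dPAS per gene (unit: other, a genome position), with 3 columns of their own comparison (a log2 change, a p-value and a class), which were not used. A further 24 columns of read totals for 6 library names match no sample and were not used. After 1 repeated row was removed, 2723 genes remained, 2710 of them with a symbol in GENCODE release 44 on GRCh37.

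Sequence was read from GRCh37, the build of hg19. A canonical hexamer (AATAAA or ATTAAA) stood in 55.5% of pPAS and 80.3% of dPAS windows of 40 nt, against 3.38% and 6.61% of windows 160 nt farther upstream. Lengths were measured along the last exon of the main transcript. Percentiles of the distance between PASs are over 2723 genes, and those of 3’ UTR lengths over the 2671 genes with both PASs in the main transcript's final exon. No test was run, because no value per sample was used. Named are the CHMP genes and every ESCRT-list gene with a PAS pair. The members and lists were chosen with earlier results of these data known. The motif search was tested on simulated sequences with planted motifs. Python 3.11.15, numpy 2.4.6, scipy 1.17.1 and matplotlib 3.10.9 were used.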

Additional observations from a re-analysis of the deposited data

How the results depend on the processing

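Of 30 alternatives tried on the values for the CHMP genes, 24 left the value the same by the spread or count limit set for it and 6 moved it. Several of the 24 could not have moved it, so the tally is not a measure of robustness. A UGUA count of 0 in 100 nt, for example, had to stay 0 in the 50 nt nearest the PAS. With UGUA counted in 150 nt up to the PAS, the CHMP2B dPAS had 1 copy in place of 0 and the CHMP1B dPAS had 2 in place of 1, so that CHMP2B no longer had the motif at the proximal site alone. Without the 100 nt up to the dPAS, CHMP4B had 0 AUUUA between its PASs in place of 1. CHMP2B had 4 in place of 6, which was within the limit and was counted as the same. Among pairs at least 100 nt apart, the distance stood at the 33.7 percentile for CHMP4B, 60.5 for CHMP2B and 68.6 for CHMP1B. The signals, the A-rich sequence and the 3’ UTR lengths did not change under their alternatives, but most of these could not change them. A wider window or more hexamers can only add to signals that all 6 PASs already had. No PAS had enough A after it to meet the other A-rich rule. For CHMP4B and CHMP1B the alternative transcript was the main one, so only the CHMP2B lengths were measured on another transcript.

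No paired analysis was possible because each gene has 1 PAS pair for all 6 samples together and no replicate has values of its own. Planned alignments of the proteins and values of library depth (read 1 and leave-one-out) were not run, the first because no protein sequences were used here and the second because the library names match no sample. Motif counts of 0 to 2 rest on few letters, and reads were assigned to a PAS of the database within 24 nt, so distances to a motif are those of the database position.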

Other observations

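CHMP3, the partner of CHMP2B in the filament, was not listed under its own symbol in the rows analysed. The readthrough gene RNF103-CHMP3 was listed on chromosome 2, minus strand, with a pPAS at 86732725 and a dPAS at 86731652 (GRCh37), 1073 nt apart. Both PASs lie in the last exon of 2 CHMP3 transcripts, the canonical one included, so reads of CHMP3 and of the readthrough transcript cannot be told apart there. UGUA was absent in the 100 nt up to either PAS. This gene was named after its row had been seen.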
